A study of Homo sapiens with 16 samples.

Results

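The genes of the 26S proteasome, its activators, its inhibitor and its assembly chaperones were followed in HEK293 cells, a human line from embryonic kidney, that overexpressed GFP or a form of the ubiquitin ligase RNF43. The members were all protein-coding genes of GENCODE 29 whose symbol is PSM, a letter from A to G and a number. This rule gave 48 genes on 17 chromosomes, of 35075 genes with transcripts in the files. By their known place in the complex they fall into 10 subgroups: 7 alpha-ring and 7 beta-ring genes, 5 tissue-specific core genes, 6 ATPases and 3 other subunits of the base, 8 lid genes, 4 activators, 1 inhibitor, 4 chaperones of the core and 3 chaperones of the base.

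The proteasome destroys proteins that carry ubiquitin chains. Its core is a barrel of alpha rings, which gate the entrance, around beta rings, of which PSMB5, PSMB6 and PSMB7 carry the catalytic sites. The regulatory particle sits on the barrel: its base holds a ring of ATPases (PSMC genes) that unfold substrates, and its lid holds PSMD14, which removes the ubiquitin chain. Subunits are needed in fixed proportions, and when proteolysis falls short the transcription factor NFE2L1 is known to raise many of their genes together. RNF43 is itself a ligase of the ubiquitin system, acting at the cell surface on Frizzled receptors.

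Each of 4 groups held 4 RNA-seq libraries: GFP as control, wild-type RNF43 (WT), and the frameshift variants R117fs and G659fs. All were HEK293 cells with an overexpressed gene, so the control carries the load of an overexpressed protein too. Neither the promoter nor the time after delivery is stated in the labels, and they do not say whether cells were pooled, cloned or grown separately. Each p-value therefore reflects the scatter of these libraries alone, which could be technical scatter. Total estimated counts ran from 20364357 to 46779570 per library. All 5 markers of HEK293 (KRT8, KRT18, VIM, NEFL and NEFM) were present in GFP cells, at 53.8 to 680.0 CPM (counts scaled to a library of 1000000). Of 14 markers of blood, gut and connective tissue cells only CDX2 and COL1A1 averaged above 10 CPM there. RNF43 itself ran from 13.1 to 50.3 CPM in GFP libraries. With an RNF43 construct it ran from 42146 to 59768 CPM (WT), 30191 to 94568 (R117fs) or 35239 to 47175 (G659fs). It thus took 5.16% of the counts of a WT library on average, 6.67% in R117fs and 3.90% in G659fs.

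The choice of scaling bears on every comparison with GFP. CPM here was scaled by TMM factors, which centre the bulk of genes between libraries. Under plain library totals, an alternative chosen after seeing the data, the median gene lay 0.14 log2 units below GFP in WT, 0.13 below in R117fs and 0.10 below in G659fs. Differences from GFP below are therefore relative to the median gene. How much of these shifts comes from the RNF43 share of counts was not tested. R117fs replicate 4 stood apart from the mean of the other libraries of its group. Its genes deviated from that mean with an SD of 0.579 (log2), against 0.272 to 0.409 in the other 15 libraries. These deviations followed GC content (Spearman 0.79 across genes, which share the library). Replicate 1 of R117fs differed too. The chi-square of its counts against the other R117fs libraries was 72.4 to 83.2 per degree of freedom, against 5.62 between replicates 2 and 3. It also had the least RNF43 of the group, 30191 CPM, where the others had 69368 to 94568. Calls of members in R117fs against GFP and against WT are given with and without replicate 4.

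Promoter letters were read for the members because NFE2L1 acts through a known short element, the antioxidant response element. RefSeq promoters (GRCh38.p14, 250 bases before to 50 after the start) were found for 42 of the 48 members, as 51 promoters. PSMA7, PSMB1, PSMB6, PSMB7, PSMD4 and PSMG3 had no entry. The core of the element, TGACNNNGC or its other strand GCNNNGTCA, was looked for in the 250 bases before the start. It was in 13 of 51 member promoters (25.5%), against 10.9% of all 35116 promoters. Among ring, base and lid genes it was only in PSMA4, PSMB3, PSMC5, PSMD3 and PSMD12. The other members with it were PSMB9, the activators PSME1, PSME2 and PSME4, and the chaperones PSMG1, PSMG2, PSMD5 and PSMD9. The 5 ring, base and lid matches below are shown 5′ to 3′ on the gene's strand with the core in capitals.
PSMA4 (alpha ring), chr15:78540650-78540678, plus strand: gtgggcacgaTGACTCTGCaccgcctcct
PSMB3 (beta ring), chr17:38752627-38752655, plus strand: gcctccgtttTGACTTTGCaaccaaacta
PSMC5 (base ATPase), chr17:63827654-63827682, plus strand: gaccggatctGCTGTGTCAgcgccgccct
PSMD3 (lid), chr17:39980760-39980788, plus strand: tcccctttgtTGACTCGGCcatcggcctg
PSMD12 (lid), chr17:67366724-67366752, minus strand: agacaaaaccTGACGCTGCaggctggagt

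The CCAAT box (CCAAT or ATTGG), bound by NF-Y, was in 19 of 51 member promoters (37.3%) and 32.0% of all. The core of the interferon-stimulated response element, GAAANNGAA or TTCNNTTTC, was in 5 of 51 (9.8%) and 6.88% of all. A short heat shock element core, GAANNTTC, was in 0 of 51 member promoters and 5.78% of all. No matches of different elements overlapped. The interferon core was in PSMA4, PSMB4, PSMB10, PSME2 and PSMG4, so also in ring genes and a chaperone of the core. PSMB8, PSMB9 and PSME1 had promoters without it. Both genes below were picked as interferon-inducible pieces, an immunoproteasome subunit and an activator, with the interferon core in capitals.
PSMB10, chr16:67936853-67936881, minus strand: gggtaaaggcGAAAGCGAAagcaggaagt
PSME2, chr14:24146620-24146648, minus strand: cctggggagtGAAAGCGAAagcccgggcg

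In GFP cells the constitutive subunits were all abundant and lay within a narrow range per length. In TPM (transcripts in 1000000, which corrects for length), the 14 ring genes ran from PSMA3 at 104.1 ± 1.18 to PSMB4 at 422.2 ± 4.81 (SD, n = 4), a 4.06-fold range. The 17 genes of the regulatory particle ran from PSMD1, a scaffold of the base, at 71.1 ± 8.45 to PSMD4, a ubiquitin receptor, at 279.0 ± 12.3, a 3.92-fold range. The medians were 183.6 TPM for the rings and 129.2 for the regulatory particle. In bulk RNA, fewer cells with a transcript and less of it per cell cannot be told apart.

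In the beta ring the order was PSMB4, PSMB1, PSMB3, PSMB7, PSMB5, PSMB6 and PSMB2. Neighbours in this order did not overlap between libraries, except PSMB5 (159.3 ± 4.42 TPM) and PSMB6 (157.0 ± 0.77), both catalytic. PSMB7, the third catalytic subunit, stood above them at 236.5 ± 10.4 TPM. In the alpha ring PSMA4 led at 369.9 ± 19.3 TPM, and in the middle PSMA5 (181.8 ± 16.1 TPM) overlapped both PSMA1 (185.45 ± 7.32) and PSMA6 (174.9 ± 2.04). Among the ATPases PSMC5 led at 188.4 ± 5.81 TPM and PSMC6 was lowest at 75.9 ± 5.34, and only PSMC3 and PSMC1 overlapped. In the lid PSMD8 led at 203.4 ± 2.95 TPM, and PSMD14, the deubiquitinase, was lowest at 72.4 ± 3.88. PSMB3 and PSMC4 each had a further set of transcripts of the same lengths and counts that did not match the annotation. Their levels, 260.1 and 113.1 TPM, include both sets and would be 130.1 and 56.6 with the matched set alone, which would make PSMC4 the lowest ATPase.

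**Figure D1:**
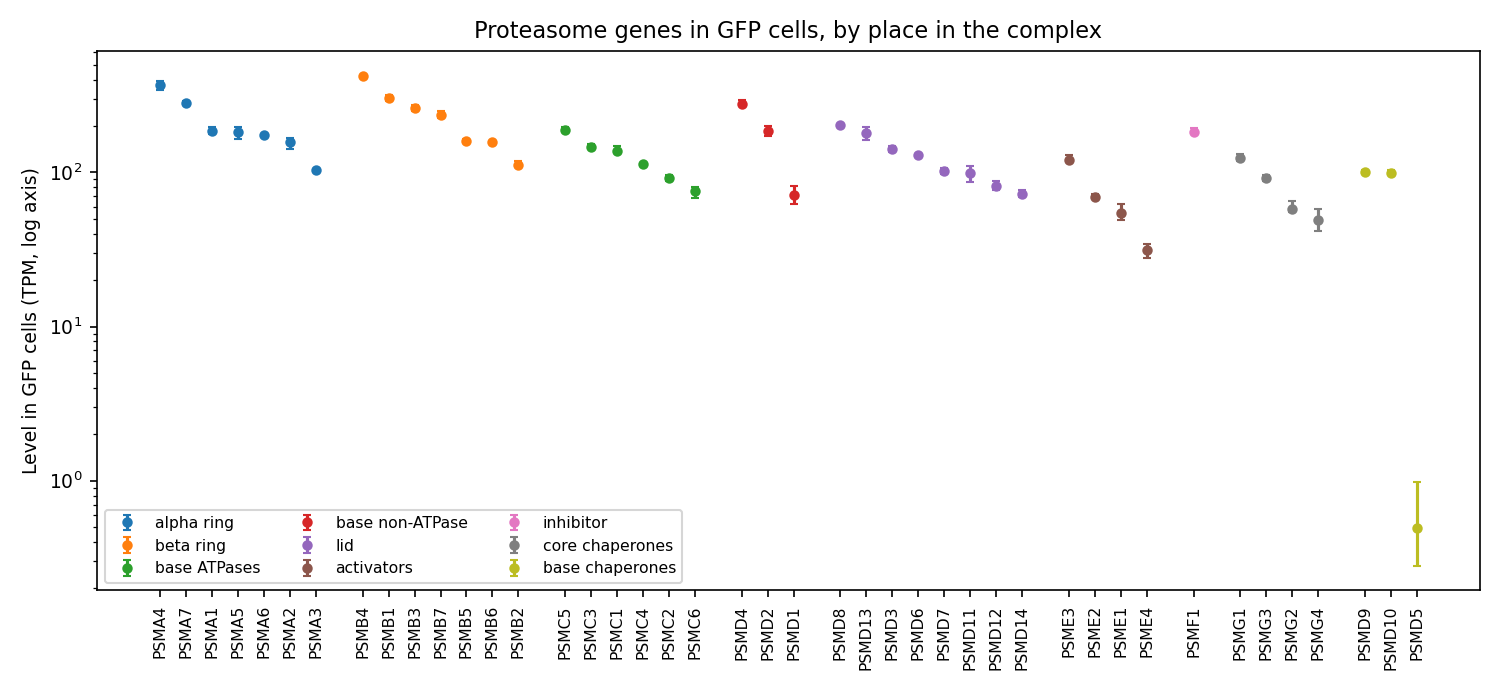
Level of 43 members in GFP cells in TPM on a log axis, in order within each subgroup (points, means of 4 libraries; bars, lowest to highest library; the 5 tissue-specific core genes are left out). Ring and regulatory particle genes sit between 71.1 and 422.2 TPM, and PSMD5 lies far below, at 0.49 TPM.

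Outside the particle levels ranged widely and partly overlapped those of its subunits. Among the activators, which replace the regulatory particle on the barrel, PSME3 (nuclear PA28-gamma) led at 121.0 ± 6.35 TPM. PSME2 and PSME1, which form the interferon-inducible PA28 ring, had 69.3 ± 1.83 and 54.7 ± 6.57 TPM, and PSME4 (PA200) had 31.4 ± 2.68. PSMF1, the inhibitor PI31, was at 182.8 ± 7.83 TPM, in the range of the subunits. The chaperone genes PSMG1 to PSMG4 of the core ran from 49.1 ± 7.55 (PSMG4) to 124.1 ± 5.41 TPM (PSMG1).

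The chaperones of the base were unequal. PSMD9 and PSMD10, which hold ATPases apart until the ring closes, had 100.2 ± 3.12 and 99.7 ± 3.07 TPM and overlapped. PSMD5, which serves the same step, had 0.49 ± 0.33 TPM, and every library of the study held only 7.1 to 28.0 counts of it. It did not differ between any groups beyond its wide error (log2 fold changes from -0.19 to 0.01, SE 0.29 to 0.32, adjusted p 0.714 or higher).

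Of the tissue-specific core genes all but PSMB10 were close to absent in the matched counts. PSMB8 and PSMB9, catalytic subunits of the immunoproteasome, summed to 3.4 and 87.1 counts over all 16 libraries. PSMB9 also had an unmatched transcript set, with which its mean count per library would be 16.5 in place of 5.4, and 45 members in place of 44 would pass the count filter, with equal numbers of calls in all 6 comparisons. PSMB11, of the thymus, and PSMA8, of the testis, summed to 12 and 34. Unmatched sets were looked for only where a matched transcript averaged 1 count or more, so PSMB8 and PSMB11 could not be checked for one. The limit that a count of 0 allows (3 counts) is 0.065 to 0.151 CPM, and none of these 4 genes passed the count filter, so 44 of 48 members were tested. In PSMB8 no library reached 1 count, and a difference was not detectable at this depth. Intervals of this kind cover counting error only.

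PSMB10, the remaining immunoproteasome subunit, was at 13.6 ± 2.02 TPM in GFP and was not called in any comparison of gene counts. Most of its counts lay on a retained-intron transcript of 591 bases: 63.0% ± 5.55 in GFP, 73.2% ± 8.91 in WT, 76.9% ± 1.68 in R117fs and 75.2% ± 2.61 in G659fs (SD, n = 4). Its full-length coding transcript of 1218 bases held 17.65% ± 4.61 in GFP and 5.41% ± 1.82 in R117fs. With protein-coding transcripts alone, PSMB10 fell by 0.91 log2 units in WT (adjusted p = 0.0336), by 1.92 in R117fs (adjusted p = 0.0021) and by 0.95 in G659fs (adjusted p = 0.0247), against GFP by edgeR. With all transcripts the same comparisons gave 0.18, 0.26 and 0.08, so its direction depends on which transcripts are counted.

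The tested members varied less between replicates than the median gene. Their within-group SD had a median of 0.091 on the log2 scale, against 0.153 for all 16787 genes tested. PSMB7 was the steadiest, at 0.045, and PSMB10 the most variable, at 0.292. Most members are highly expressed, and the part of that in their small spread was not tested.

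With WT RNF43 the proteasome genes as a set were slightly higher than in GFP, relative to the median gene. Their summed level was 4572, 4675, 4497 and 4545 CPM in the GFP libraries and 5063, 4943, 4909 and 4932 CPM in the WT libraries. The groups did not overlap, and the means differed by 8.51%. On the deposited TPM scale, which has no TMM factors, the sums overlapped instead, at 6287 to 6461 TPM in GFP and 6270 to 6383 in WT. The TPM sums here and below include the unmatched transcript sets of PSMB3, PSMC4 and PSMB9, which the CPM sums leave out. RNF43 held 2.885% of TPM in WT, and what sets the 2 scales apart was not tested. The median log2 fold change over the 44 tested members was 0.13, against 0.00 over all genes, and 40 of 44 were above 0. Measured from the median gene of each fit, the members' median stayed between 0.11 and 0.14 under all 27 alternatives. This measure takes out a shift shared by all genes, so plain library totals could not test it. Leaving out an R117fs or G659fs library could hardly move it either.

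By the test of single genes 6 of 44 members rose and 0 fell, against 9.85% of all genes rising, 11.6% falling and 21.5% called in either direction. The counts at an unadjusted p under 0.05 were 18 higher and 0 lower, and DESeq2 called 11 higher and 0 lower. In 26 of 44 members every WT library lay above every GFP library, and in 0 every one lay below, where 17.1% and 16.7% of all genes did so. With plain library totals 0 rose and 1 fell. Without R117fs replicate 4, which is in neither group but in the shared fit, 22 rose and 0 fell, where 36.0% of all genes were called in either direction. The members' median was 0.13 with and without it.

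The pieces of the complex are given side by side, and differences between pieces were not tested. The alpha ring summed to 809, 841, 836 and 805 CPM in GFP and to 964, 947, 910 and 906 in WT, 13.3% higher and without overlap. The beta ring was 9.04% higher and the ATPases 11.03%, again without overlap. The lid was 4.32% higher, with WT libraries at 1053 to 1092 CPM and GFP libraries at 989 to 1055, which overlap. The other base subunits were 2.79% higher, at 521 to 533 CPM in WT and 484 to 539 in GFP, which also overlap. The activators were 7.8% higher and the inhibitor 11.58%. Among ring genes 12 of 14 had all WT libraries above all GFP libraries, and in the regulatory particle 8 of 17. The chaperones of the core and of the base were 11.03% and 14.5% higher.

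**Figure D2:**
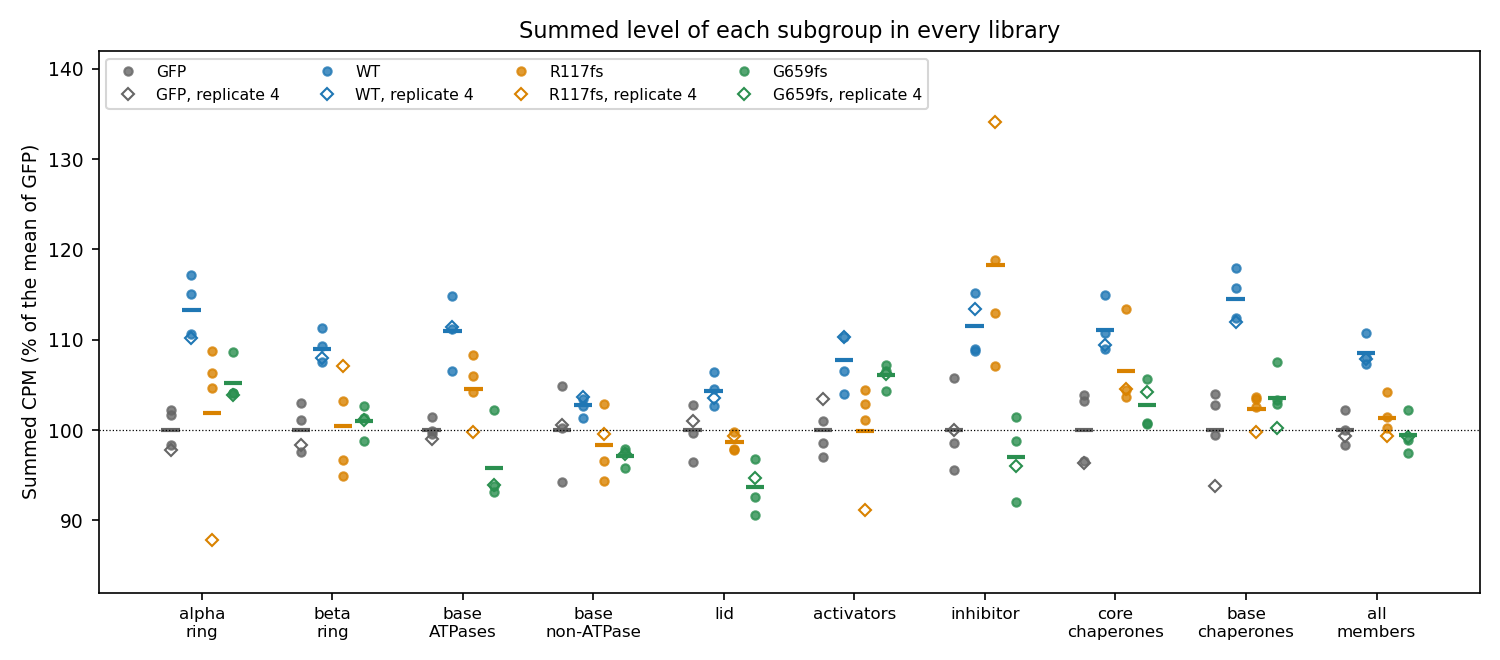
Summed CPM of each subgroup in every library as a percentage of the GFP mean (points, libraries; open diamonds, replicate 4; bars, means of 4). WT libraries lie above GFP in most subgroups, and G659fs libraries lie above GFP in the alpha ring and at or below it in the lid.

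PSME3 (chr17:42824385-42843758) and PSMD10 (chrX:108084207-108091618) were the clearest single genes. PSME3 was at 164, 155, 160 and 155 CPM in GFP and at 188, 183, 187 and 190 CPM in WT. PSMD10, also known as gankyrin, was at 90.3, 87.3, 91.9 and 83.4 CPM in GFP and at 111, 108, 104 and 103 CPM in WT. In both genes the lowest WT library was above the highest GFP library. PSME3 rose by 0.24 ± 0.06 log2 units (SE, edgeR adjusted p = 0.00688) and PSMD10 by 0.27 ± 0.07 (adjusted p = 0.00895). Both calls were kept in 26 of 27 alternatives. They were lost with plain library totals, where the differences were 0.10 and 0.14.

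PSMA6 (chr14:35278633-35317493), of the alpha ring, had the largest rise of the rings. It was at 88.1, 96.7, 95.4 and 89.7 CPM in GFP and at 125, 109, 112 and 107 CPM in WT. WT replicate 1 was highest, and the groups did not overlap (0.29 ± 0.08 log2 units, adjusted p = 0.0192). The call was lost without GFP replicate 1 (adjusted p = 0.0622), GFP replicate 4 (adjusted p = 0.0725) or WT replicate 1 (adjusted p = 0.0775), and with plain library totals (adjusted p = 0.185). PSMA3 and PSMA4 had differences of 0.26 ± 0.10 and 0.21 ± 0.11 with adjusted p of 0.0664 and 0.187.

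The other calls were smaller. PSMB1, of the beta ring, was at 158 to 170 CPM in GFP and 178 to 188 in WT (0.17 ± 0.06, adjusted p = 0.0408). The ATPase PSMC3 was at 114 to 130 CPM in GFP and 136 to 146 in WT (0.22 ± 0.07, adjusted p = 0.0276). The ATPase PSMC5 was at 134 to 138 CPM in GFP and 147 to 155 in WT (0.16 ± 0.05, adjusted p = 0.0417). None of these ranges overlapped, but the calls of PSMB1 and PSMC5 were lost under 16 and 15 of 27 alternatives. Of the catalytic subunits PSMB5, PSMB6 and PSMB7 had 0.18 ± 0.07, 0.07 ± 0.06 and 0.10 ± 0.05, with adjusted p from 0.077 to 0.397. PSMD8 of the lid lay at the threshold, with 0.22 ± 0.08 and an adjusted p of 0.05. PSMD1, PSMD12 and PSME4 were the members below GFP by the most, at -0.08, -0.08 and -0.09.

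**Figure D3:**
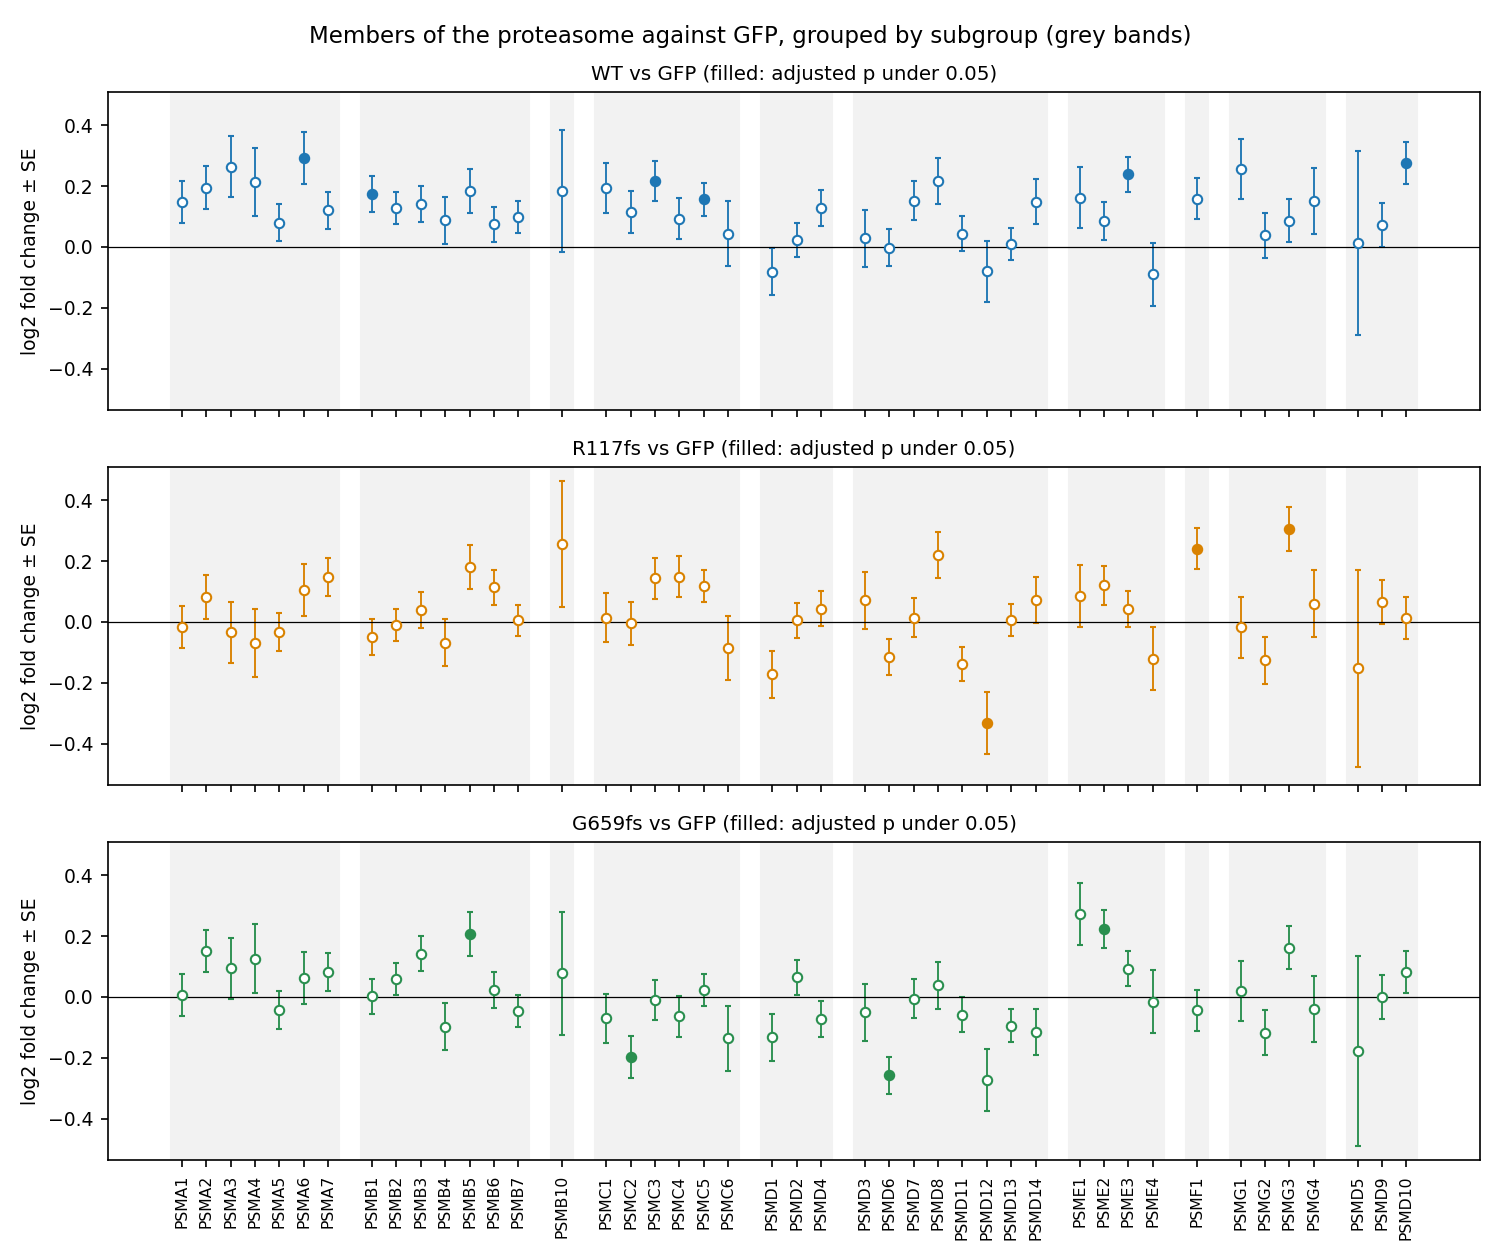
Log2 fold change against GFP of the 44 tested members in WT (top), R117fs (middle) and G659fs (bottom), ordered by subgroup (points, edgeR estimates; bars, SE; filled, adjusted p under 0.05). In WT 40 of 44 points are above 0, while in G659fs the regulatory particle has 14 of 17 below 0; the panels share the GFP libraries.

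With R117fs the members stayed near GFP as a set. Their summed level was 4764, 4583, 4639 and 4541 CPM, with a mean 1.3% above GFP and overlapping libraries. The median log2 fold change was 0.01, against -0.01 over all genes, with 27 above 0 and 17 below. By edgeR 2 of 44 rose and 1 fell, against 7.04% of all genes rising, 8.57% falling and 15.6% called. With plain library totals 0 rose and 6 fell, and without replicate 4, 5 rose and 1 fell (21.7% of all genes called). Libraries did not overlap in 8 members, 6 higher and 2 lower, where 7.29% and 9.19% of all genes were so. All comparisons with GFP use the same 4 GFP libraries, so they are not independent of each other.

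PSMG3 (chr7:1567330-1571005), a chaperone that pairs with PSMG4 in building the alpha ring, rose. It was at 58.6, 51.7, 56.0 and 50.2 CPM in GFP and at 61.7, 64.2, 65.4 and 76.7 CPM in R117fs. All R117fs libraries were above all GFP libraries, replicate 4 most (0.31 ± 0.07 log2 units, adjusted p = 0.00768). Without replicate 4 it was 0.24 higher, with an adjusted p of 0.00355. Its coding transcripts alone gave 0.31 (adjusted p = 0.0109). Of 27 alternatives 2 lost the call, namely the 8 libraries alone and plain library totals. PSMG3 is overlapped by an antisense gene, PSMG3-AS1, and no label states whether strand was used in counting, so their reads may not be told apart.

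PSMF1 (chr20:1113263-1189415), the inhibitor, rose as well. It was at 114, 106, 103 and 108 CPM in GFP and at 128, 115, 122 and 145 CPM in R117fs. The groups did not overlap, though the lowest R117fs library was close to the highest GFP library (0.24 ± 0.07, adjusted p = 0.0208). Without replicate 4 the difference was 0.18 (adjusted p = 0.0142), and with coding transcripts alone 0.18 with an adjusted p of 0.0653. Of 27 alternatives 5 lost the call, among them GFP replicate 2 or 3 left out, the 8 libraries alone and plain library totals.

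PSMD12 (chr17:67337916-67366627), a lid subunit, fell. It was at 133, 138, 135 and 137 CPM in GFP and at 117, 118, 120 and 76.2 CPM in R117fs. All R117fs libraries were below GFP, and replicate 4 was far below the others. The fall was 0.33 ± 0.10 log2 units (adjusted p = 0.0344), and 0.20 without replicate 4 (adjusted p = 0.00361). The call was lost under 11 of 27 alternatives, among them each GFP library left out, effective lengths and protein-coding transcripts alone. In G659fs PSMD12 was at 121, 109, 113 and 107 CPM, below every GFP library (-0.27 ± 0.10, adjusted p = 0.0558). In WT, at 125 to 134 CPM, it overlapped GFP.

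In R117fs the size of a member's difference followed GC content. The members' transcripts average 38.8% to 62.0% GC. Across the 44 tested members, which share the libraries, the fold change against GFP had a Spearman correlation of 0.726 with GC content, and of 0.102 without replicate 4. Within replicate 4 the deviation of members from their group followed GC with 0.913. PSMA4, at 197, 202 and 208 CPM in the other R117fs libraries, was at 122 in replicate 4, and PSMD3 went the other way, from 168 to 188 CPM to 253. The PSMG3 (58.7% GC), PSMF1 (56.8%) and PSMD12 (39.6%) results lie at the ends of this scale, as does PSMB10 (62.0%), whose difference of 0.26 became 0.03 without replicate 4. With the GC trend of each library removed, PSMG3, PSMF1 and PSMD12 had 0.23, 0.18 and -0.19, with adjusted p of 0.00168, 0.00203 and 0.000387.

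**Figure D4:**
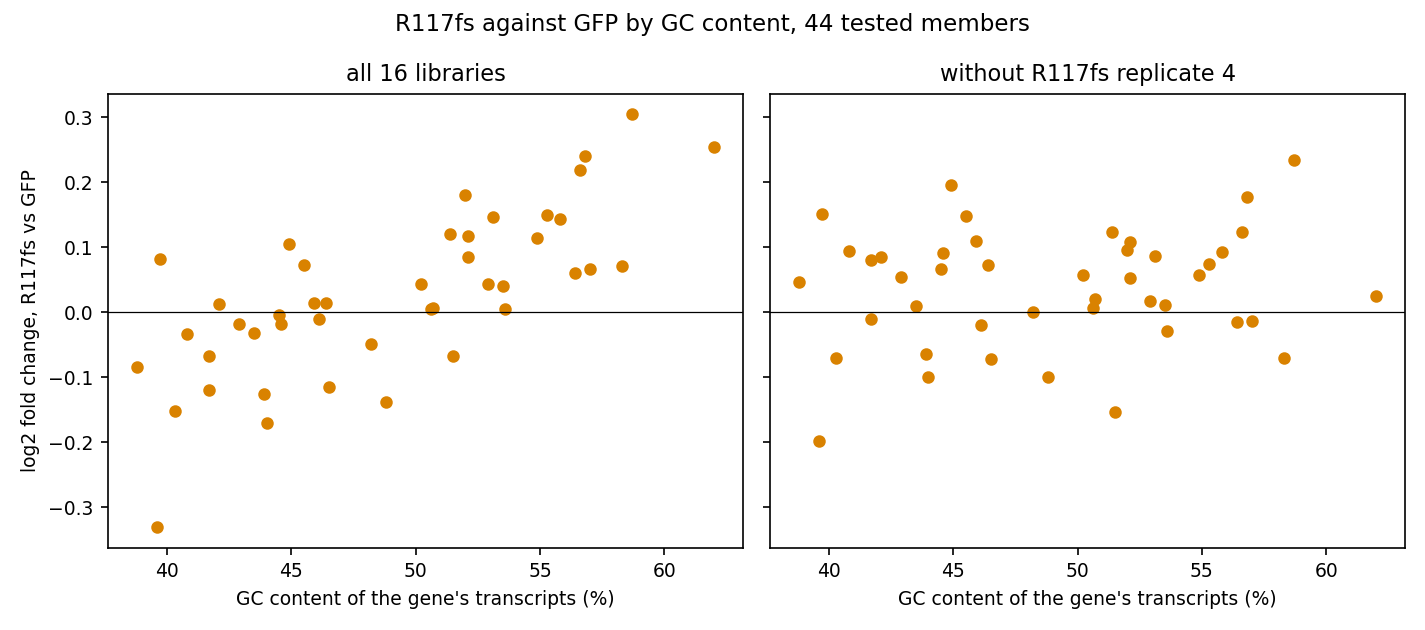
Log2 fold change of R117fs against GFP for the 44 tested members by the mean GC content of their transcripts, with all 16 libraries (left) and without R117fs replicate 4 (right). The rise with GC on the left (Spearman 0.726) is not seen on the right (0.102).

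With G659fs the summed CPM of the core and of the cap lay on opposite sides of GFP. The 14 ring genes summed to 1783, 1735, 1711 and 1729 CPM, against 1685, 1732, 1681 and 1656 in GFP, 3.03% higher and overlapping. The 17 genes of the regulatory particle summed to 2090, 1995, 1962 and 2016 CPM, against 2118, 2183, 2051 and 2128, 4.9% lower and overlapping through G659fs replicate 1. The alpha ring, at 854 to 894 CPM against 805 to 841, did not overlap. The lid, at 929 to 993 CPM against 989 to 1055, overlapped by 1 library. The sum of all members, 4458 to 4674 CPM, overlapped GFP. On the TPM scale it lay wholly below GFP (-6.5% in the mean), and the rings and the regulatory particle differed from GFP by -3.78% and -11.4%.

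In this comparison 2 of 44 members rose and 2 fell, against 11.6% of all genes rising, 13.8% falling and 25.4% called, and the median was 0.00 for the members and 0.00 for all genes. With plain library totals 0 rose and 10 fell, and without R117fs replicate 4, 7 rose and 4 fell (39.4% of all genes called). Of the ring genes 11 of 14 were above 0, with a median of 0.06, and of the regulatory particle 14 of 17 were below 0, with a median of -0.07. Measured from the median gene, the ring median stayed between 0.04 and 0.08 and the regulatory particle median between -0.09 and -0.05 under all 27 alternatives. Plain library totals, or a WT or R117fs library left out, could hardly move medians measured in this way. These medians are small beside the SE of a single gene, and whether the pieces differ was not tested. Libraries did not overlap in 12 members, 7 higher and 5 lower, where 19.1% and 18.8% of all genes were so.

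PSMD6 (chr3:64010549-64024010), a lid subunit, fell most clearly. It was at 116, 119, 113 and 118 CPM in GFP and at 104, 94.5, 93.3 and 98.5 CPM in G659fs. All G659fs libraries were below GFP (-0.26 ± 0.06 log2 units, adjusted p = 0.0046), and the call was kept in all 27 alternatives. In WT it was at 112 to 123 CPM, level with GFP (0.00 ± 0.06).

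The ATPase PSMC2 (chr7:103344254-103369395) fell too. It was at 96.6, 100.04, 98.5 and 98.2 CPM in GFP and at 90.9, 84.4, 84.9 and 82.7 CPM in G659fs. The groups did not overlap (-0.20 ± 0.07, adjusted p = 0.0427), though 11 of 27 alternatives lost the call. Of the 6 ATPases 5 were below 0, and the range was -0.20 to 0.02.

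The risers were PSMB5 (chr14:23016543-23035230), the chymotrypsin-like catalytic subunit, and the activator PSME2 (chr14:24143362-24147570). PSMB5 was at 103, 106, 98.3 and 97.5 CPM in GFP and at 117, 117, 113 and 119 CPM in G659fs (0.21 ± 0.07, adjusted p = 0.0436). PSME2 was at 30.6, 30.4, 30.7 and 30.2 CPM in GFP and at 34.5, 37.3, 36.3 and 34.3 CPM in G659fs (0.22 ± 0.06, adjusted p = 0.0133). Neither gene's groups overlapped. The PSMB5 call was lost under 11 of 27 alternatives. The PSME2 call was lost without G659fs replicate 2, with effective lengths as offsets and with plain library totals. Its partner PSME1 was at 28.0 to 34.1 CPM in GFP and 33.4 to 39.0 in G659fs, with a difference of 0.27 ± 0.10 that did not pass (adjusted p = 0.0557). PSME3 and PSME4 had 0.09 ± 0.06 and -0.02 ± 0.10.

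**Figure D5:**
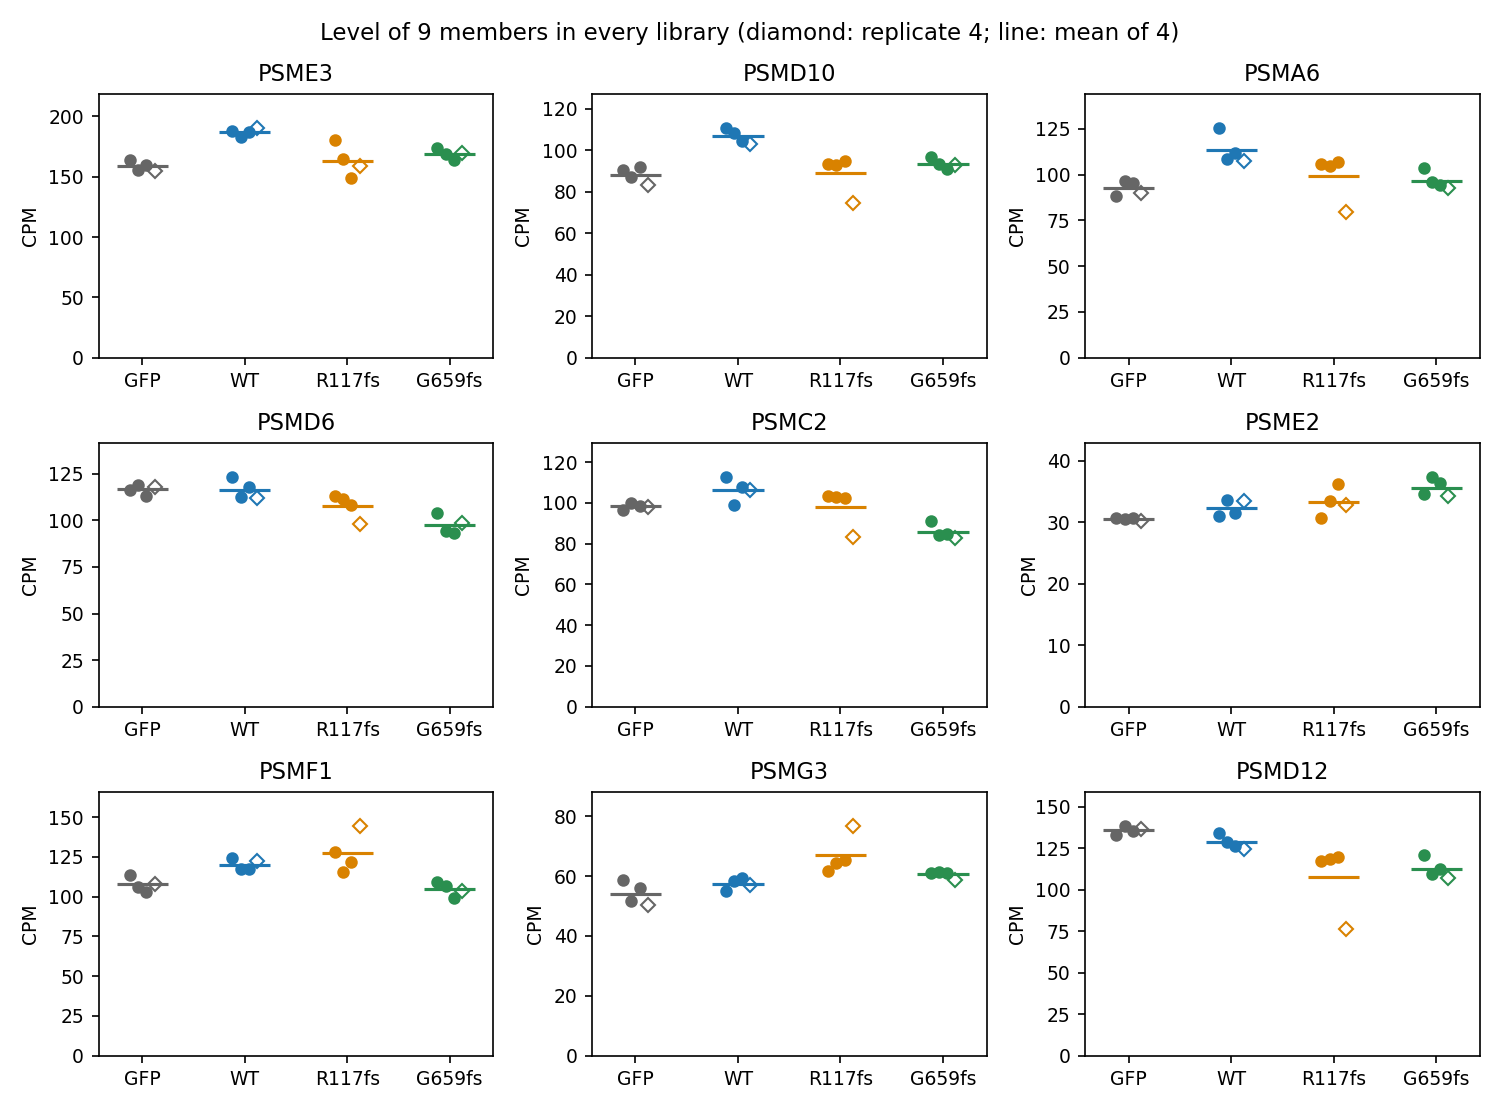
CPM of 9 called members in every library of the 4 groups (points, libraries; open diamonds, replicate 4; lines, means of 4; each axis starts at 0). PSME3, PSMD10 and PSMA6 are highest in WT, PSMD6 and PSMC2 lowest in G659fs on average, and R117fs replicate 4 is the lowest library in PSMD12 and the highest in PSMF1 and PSMG3.

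Against WT, at 4909 to 5063 CPM, the summed level was lower in both variants, at 4541 to 4764 CPM in R117fs and 4458 to 4674 in G659fs, with no overlap. On the TPM scale R117fs (5784 to 6305) overlapped WT (6270 to 6383), and G659fs (5952 to 6054) did not. In R117fs 0 of 44 members rose and 3 fell by edgeR, against 4.5% of all genes rising, 3.62% falling and 8.11% called, with a median of -0.10 for the members and -0.01 for all genes. At an unadjusted p under 0.05, 1 was higher and 14 lower, and DESeq2 called 1 higher and 6 lower. The 3 were PSMB1 (140 to 164 CPM against 178 to 188, -0.22 ± 0.06, adjusted p = 0.0267), PSMD10 (74.7 to 94.6 CPM against 103 to 111, -0.26 ± 0.07, adjusted p = 0.0278) and PSME3 (149 to 180 CPM against 183 to 190, -0.20 ± 0.06, adjusted p = 0.045). These genes are among those that rose in WT against GFP, and both comparisons use the WT libraries. Without R117fs replicate 4 the changes were -0.17, -0.19 and -0.18, with adjusted p of 0.0133, 0.011 and 0.0301, and 7 members fell in all (9.48% of all genes called). The call of PSME3 was lost under 19 of 27 alternatives, and those of PSMB1 and PSMD10 under 6 each. Libraries were all lower in 12 members and all higher in 1, where 8.32% and 7.01% of all genes were so.

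In G659fs against WT 0 members rose and 4 fell by edgeR, against 2.32% of all genes rising, 3.35% falling and 5.67% called. At an unadjusted p under 0.05, 1 was higher and 18 lower, and DESeq2 called 0 higher and 12 lower. The members' median was -0.14, against 0.00 over all genes, and 37 of 44 were below 0. In 28 of 44 members every G659fs library was below every WT library, where 14.5% of all genes were so. All 8 lid genes were among the 28, with a lid median of -0.17, and 14 of the 17 genes of the regulatory particle. Of the ring genes 8 of 14 were, with a median of -0.10. Plain library totals moved the median gene by only 0.03 in this comparison, and the members' median was then -0.11.

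The 4 that fell all belong to the regulatory particle. PSMC2 was at 113, 99.1, 108 and 106 CPM in WT and at 82.7 to 90.9 in G659fs (-0.31 ± 0.07, adjusted p = 0.0172). PSMD6 fell by 0.26 ± 0.06 log2 units (adjusted p = 0.022). PSMD14, the deubiquitinase (chr2:161308038-161411717), was at 96.4, 91.5, 94.9 and 92.6 CPM in WT and at 84.2, 76.1, 75.3 and 77.2 in G659fs (-0.26 ± 0.07, adjusted p = 0.0445). The ubiquitin receptor PSMD4 (chr1:151254703-151267479) was at 221 to 234 CPM in WT and 189 to 200 in G659fs (-0.20 ± 0.06, adjusted p = 0.0497). In none of the 4 did the groups overlap. PSMD4 and PSMD14 sit at the threshold and were lost under 16 and 15 of 27 alternatives. Without R117fs replicate 4, 22 members fell and 0 rose, where 20.7% of all genes were called.

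Between the variants, G659fs against R117fs, 0 members rose and 2 fell by edgeR, against 6.35% of all genes rising, 8.02% falling and 14.4% called, with medians of -0.03 and 0.01. At an unadjusted p under 0.05, 0 were higher and 7 lower, and DESeq2 called 0 higher and 4 lower. PSMF1 was at 109, 106, 99.1 and 103 CPM in G659fs, below all R117fs libraries (-0.28 ± 0.07, adjusted p = 0.00871, and lost with the 8 libraries fitted alone). The ATPase PSMC4 was at 54.6, 49.998, 48.2 and 49.5 CPM in G659fs and at 56.1, 55.3, 55.5 and 67.8 in R117fs (-0.21 ± 0.07, adjusted p = 0.0438). The R117fs high value of PSMC4 is that of replicate 4. The PSMC4 call was kept without replicate 4. It was lost under 13 of 27 alternatives, among them R117fs replicates 1 and 4 both left out. Without replicate 4, 7 members fell and 0 rose (23.5% of all genes called). All 6 ATPases were below 0, with a median of -0.12. Libraries did not overlap in 5 members, 1 higher and 4 lower, where 9.28% and 8.77% of all genes were so.

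Genes that work with the proteasome but fall outside the naming rule were read from the same fit, as a list of 43. In WT 2 rose and 5 fell, in R117fs 1 rose and 7 fell, and in G659fs 4 rose and 7 fell, each against GFP, with medians of 0.05, -0.06 and -0.02. Of all genes 9.85%, 7.04% and 11.6% rose and 11.6%, 8.57% and 13.8% fell in these comparisons. Of the 13 that bind or assist the particle, 0 rose against GFP in any group, while 1 fell in WT, 2 in R117fs and 4 in G659fs. Among the 13, POMP (maturation of the core), ADRM1 (a ubiquitin receptor) and SEM1 (a small lid subunit) did not pass against GFP. Their differences were -0.09 to 0.19, with adjusted p of 0.0895 or higher. ZFAND2A, an arsenite-inducible partner of the particle, fell in all 3. It was at 16.2 to 17.5 CPM in GFP, 11.25 to 12.02 in WT, in R117fs 12.4 to 15.5, and in G659fs 9.33 to 10.6. The log2 fold changes were -0.51, -0.28 and -0.72, with SE of 0.075 to 0.076 and adjusted p of 0.000158, 0.0189 and 5.01e-06.

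The genes that control proteasome transcription did not move as one. NFE2L1 was at 213 to 245 CPM in GFP, 214 to 245 in WT, in R117fs 228 to 314, and in G659fs 213 to 232, with adjusted p from 0.252 to 0.87 against GFP. Of its small MAF partners, MAFG and MAFK fell in all 3 groups, and MAFF did not follow them. MAFG was at 121 to 129 CPM in GFP, 89.3 to 99.3 in WT, in R117fs 91.6 to 116, and in G659fs 104 to 114 (log2 fold changes of -0.43, -0.36 and -0.21, SE 0.07, edgeR adjusted p 0.000439, 0.00269 and 0.0384). MAFK fell by 0.57, 0.55 and 0.36 (SE 0.12, adjusted p 0.00248, 0.00532 and 0.0339). In G659fs the calls of MAFG and MAFK were lost under 8 and 7 of 27 alternatives. MAFF was at 6.58 to 10.2 CPM in GFP, 5.68 to 10.5 in WT, in R117fs 3.81 to 6.68, and in G659fs 10.6 to 11.6. Against GFP it had 0.07 in WT (adjusted p = 0.817) and 0.44 in G659fs (adjusted p = 0.0797). In R117fs it fell by 0.66 (adjusted p = 0.0309), a call lost under 8 of 27 alternatives, among them without replicate 1 or replicate 4. G659fs exceeded R117fs in MAFF by 1.09 ± 0.19 (adjusted p = 0.00104), a call kept in 27 of 27 alternatives. NGLY1, the glycanase that NFE2L1 needs to become active, was at 44.002 to 48.8 CPM in GFP and 32.2 to 37.3 in G659fs. It fell by 0.44 ± 0.10 there (adjusted p = 0.00271), while in WT, at 44.3 to 49.8 CPM, it overlapped GFP.

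On the antigen-processing side, where proteasome products are loaded on MHC class I, TAP2, a subunit of the peptide transporter, rose in WT and more in G659fs. It was at 34.3 to 36.1 CPM in GFP, 43.4 to 50.4 in WT, in R117fs 37.9 to 40.6, and in G659fs 54.2 to 58.3. The rises were 0.40 ± 0.06 (adjusted p = 0.000157) and 0.66 ± 0.06 (adjusted p = 7.83e-07), and G659fs exceeded WT by 0.26 ± 0.06 (adjusted p = 0.0181). Part of the TAP2 and B2M reads, and most of those of TAP1, lay on further transcript sets that did not match the annotation and are not in these values. ERAP2, which trims peptides, rose in G659fs by 0.42 ± 0.13 (adjusted p = 0.025) from 4.48 ± 0.39 to 5.98 CPM, a call lost under 8 of 27 alternatives. Of the 9 genes of this list 3 rose in G659fs and 0 fell, namely TAP2, ERAP2 and B2M, and 2 rose in WT and 0 fell, where 11.6% and 9.85% of all genes rose. Among the 14 ubiquitin and delivery genes SQSTM1, an autophagy receptor, fell in R117fs by 0.34 ± 0.09 (adjusted p = 0.0134).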

How the data were processed

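RNA of 16 HEK293 libraries, 4 per group, was quantified by the authors with kallisto 0.45.1 on GRCh38, per the submitters' processing notes. The deposited files give, per transcript, estimated counts and TPM; the annotation release was not given in the sources used here. Transcripts were matched by identifier to GENCODE 29 (162453 of 178136, 91.2%), and unmatched ones held 1.904 to 2.216% of counts. Estimated counts were summed per gene and rounded.

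Differences were estimated with edgeR 4.0.16, run under R 4.3.3 (filterByExpr, TMM factors, robust quasi-likelihood fit of all 16 libraries, 6 contrasts, Benjamini-Hochberg adjustment over 16787 genes, threshold 0.05). CPM are counts in 1000000 with TMM factors. SE are from the fit, and SD are over the 4 libraries. No pair of libraries agreed within sampling noise. The fit was tested on simulated data.

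Alternatives were DESeq2 1.42.0, no filter on low counts, each library left out, the 8 libraries of a contrast alone, a replicate block, effective length offsets, a GC trend removed by lowess (span 0.3), pseudogene counts added and protein-coding transcripts only. After seeing the data, second transcript sets, R117fs replicates 1 and 4 left out, plain library totals and summed TPM were added.

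Named genes were, per subgroup, called members (at most 3 per direction and comparison, by adjusted p), those with the highest and lowest TPM, the catalytic, tissue-specific, activator and inhibitor genes, and of the pathway list POMP, SEM1, ADRM1, NFE2L1 and the 4 called of smallest adjusted p per comparison; 1 result under this rule is not reported here. Other genes named (such as PSMB3, PSMD3, PSMD9, PSMA1, PSMA5, PSMC1, PSMG2 and B2M) were chosen after their values were seen. The members and lists were chosen with earlier results of these data known. Promoters are from RefSeq (GRCh38.p14).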

Additional observations from a re-analysis of the deposited data

Results flagged for a closer look

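A library was marked where, in a group of 4, the gap between it and the nearest other library as a share of the group's range was above Dixon's critical value. Of 188 groups examined (members and pathway genes named above), 17 held such a library, where chance marks about 1 group in 20. R117fs replicate 4 was the library in 10 of the 17.

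In R117fs replicate 4, PSMA3 was at 37.54 CPM (the others 56.16 to 59.2), PSMA4 at 122.29 (196.87 to 207.81) and PSMA6 at 79.71 (104.79 to 107.09). PSMC2 was at 83.15 CPM (102.38 to 103.23), PSMD1 at 104.11 (127.74 to 130.2), PSMD10 at 74.73 (93.06 to 94.61) and PSMD12 at 76.22 (117.1 to 119.53). These 7 were low in that library. PSMC4 was high there at 67.8 CPM (55.29 to 56.06), as were ADRM1 at 169.29 (107.05 to 113.34) and MAFG at 115.87 (91.61 to 93.27).

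The other 7 were small in size. PSMB4 was at 258.67 CPM in WT replicate 1 (238.11 to 240.45), PSMB7 at 117.74 in G659fs replicate 2 (110.79 to 111.75) and PSMG3 at 58.68 in G659fs replicate 4 (61.1 to 61.36). SEM1 was at 68.81 CPM in WT replicate 2 (62.96 to 63.96) and ZFAND2A at 11.25 in WT replicate 2 (11.89 to 12.02). MAFG was at 120.91 CPM in GFP replicate 3 (127.87 to 128.64) and SQSTM1 at 170.08 there (188.56 to 188.93).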

How the results depend on the processing

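Counts of called members moved with the settings. No gene called by edgeR with all 16 libraries changed sign under the 27 alternatives, but PSMB10, not called there, did with protein-coding transcripts. Measured from the median gene, the members' median in G659fs against GFP (-0.003) had the other sign under 9 of 27, that between the variants under 1, and small subgroup medians also changed sign. Of 162 alternative medians 152 stayed within the spread between libraries. Counts are given for WT, R117fs and G659fs against GFP, then R117fs and G659fs against WT, then G659fs against R117fs. DESeq2 called 11, 6, 7, 7, 12 and 4 members. The 8 libraries alone gave 21, 0, 10, 0, 28 and 0, and removing the GC trend gave 21, 11, 12, 8, 20 and 9. Without R117fs replicates 1 and 4 the counts were 22, 8, 14, 9, 24 and 8. Plain library totals gave 1, 6, 10, 3, 2 and 1. With no filter on low counts the last 3 comparisons gave 0, 1 and 1, effective lengths gave 1 between the variants, and protein-coding transcripts gave 2 in G659fs against WT. Leaving out 1 library gave 2 to 22, 1 to 6, 1 to 11, 0 to 7, 0 to 22 and 1 to 7, the highest in each without R117fs replicate 4. The causes were not tested.

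The replicate block gave 7, 3, 6, 4, 5 and 2 calls. Deviations of same-numbered libraries correlated at -0.062 to 0.161, so the numbers were not taken to pair samples.

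With 4 libraries a group and members' SD of 0.091 (log2), differences of the size seen here lie near the threshold. Those in the 4 genes that were not tested are below what the matched counts can show at this depth.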
